A study of Mus musculus and Sus scrofa with 30 samples.

Results

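The genes described here are 35 endoplasmic reticulum (ER) chaperones, folding enzymes and components of the unfolded protein response, measured by bulk RNA-seq in differentiating mouse 3T3-L1 and porcine DFAT cells. They were chosen by name, ignoring case, and all 35 were found once among the 24843 genes of the 3T3-L1 table and once among the 34307 genes of the DFAT table. 3T3-L1 is an established mouse embryonic fibroblast line that can become adipocytes in culture, and DFAT cells are dedifferentiated fat cells from pig subcutaneous fat. In each system 5 groups of 3 libraries were taken on day 5 of differentiation: DMSO vehicle, dicoumarol, magnolol, dicoumarol with magnolol (called the combination below), and rosiglitazone, an agonist of the adipocyte regulator PPAR gamma. All 3T3-L1 groups, vehicle included, were induced in 10% serum with IBMX at 37.5 µM, dexamethasone at 75 nM and insulin at 0.75 µg/mL. All DFAT groups were induced in 2% serum with biotin (20 µM), IBMX (12.5 µM), pantothenate (10 µM) and dexamethasone (0.5 µM), and insulin is not listed for them. Doses of the 3 compounds are not stated in the labels. The labels also do not say whether the 3 libraries of a group came from separate cultures or animals, so p-values measure only the spread between these libraries.

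The ER folds and glycosylates proteins that enter the secretory pathway. When unfolded proteins build up, the membrane sensors IRE1 (Ern1), PERK (Eif2ak3) and ATF6 signal to the nucleus and to the ribosome. IRE1 splices the mRNA of the transcription factor XBP1, ATF6 is cut to release a transcription factor, and PERK slows translation. Their targets include luminal chaperones, disulfide isomerases and the machinery of ER-associated degradation (ERAD), which exports misfolded proteins to the proteasome. Adipocytes secrete adipokines and lipoprotein lipase, which are folded there, and XBP1 and the ERAD adaptor SEL1L are known for roles in adipose tissue. Gene-level counts do not separate spliced from unspliced Xbp1.

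Estimated depth was 22800000 to 30700000 reads per 3T3-L1 library and 44800000 to 70500000 reads per DFAT library. Values are the authors' counts divided by DESeq2 size factors ("normalized counts"). Adipocyte markers, 8 of 8 present in both tables, summed to 44205 to 62112 in the 3T3-L1 vehicle libraries and 321407 to 565835 under rosiglitazone. The corresponding DFAT sums were 18489 to 21420 under vehicle, 56913 to 64213 with the combination and 76446 to 83524 under rosiglitazone. The fibroblast and stromal markers, 7 of 7 in 3T3-L1 and 6 of 7 in DFAT, summed to 211309 to 239875 under vehicle and 129509 to 170959 under rosiglitazone in 3T3-L1. In DFAT these sums were 1651687 to 1800603 under vehicle, 2558862 to 3038384 with the combination and 1264300 to 1403448 under rosiglitazone. The list did not move as one: with the combination COL1A1 (0.85) and COL3A1 (0.55, log2 fold changes) were called higher than vehicle, and DCN (-1.10), LUM (-0.72) and PDGFRA (-0.86) lower. The muscle markers summed in DFAT to 127 to 141 under vehicle, 135 to 224 under rosiglitazone and 238 to 302 with the combination, where DES (1.81) and ACTA1 (0.59) were called higher and MYOD1 had a mean under 10. Endothelial markers (Pecam1, Cdh5, Kdr) summed to at most 18.0 in any 3T3-L1 library, and KDR was listed at 0 in every DFAT library. In DFAT these markers summed to 204 to 236 under vehicle and 149 to 206 in the treated groups. PECAM1, the 1 marker of the list that could be tested there, was at -0.42, -0.34, -0.29 and -0.39 with dicoumarol, magnolol, the combination and rosiglitazone. None of these was called, and each had an unadjusted p under 0.05. The part of these marker shifts in the results below was not tested, and in bulk samples fewer cells of a type and less RNA per cell cannot be told apart.

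In 3T3-L1 cells rosiglitazone changed ER genes in both directions, in 32.4% of the members beside 40.1% of all genes. Dicoumarol, magnolol and their combination left no member past the threshold there, beside 0%, 1.23% and 5.22% of all genes. These shares depended on the model. Matching same-numbered 3T3-L1 libraries in limma put 3 members (8.82%) past the threshold with the combination, beside 13.5% of all genes. Dicoumarol and magnolol alone still had 0. Under rosiglitazone the matched shares were 55.9% of the members and 49.8% of all genes, so their order was reversed. Dnajb9, a co-chaperone of BiP that is a known IRE1 and XBP1 target, was the largest rise, and Sec24d, a cargo receptor of the COPII vesicles that leave the ER, was the largest fall. Under rosiglitazone the members ran from -0.31 to 0.48 on the log2 scale in DFAT cells and from -0.81 to 1.45 in 3T3-L1. In DFAT rosiglitazone lowered HSP90B1, CALR, PDIA4, DNAJC3 and DNAJC10 and raised ERO1A (17.1% of the members beside 10.8% of all genes). The combination raised CALR, HYOU1 and SEC24D there and lowered DNAJB9 (11.4% beside 10.2%). A gene was called where limma gave an adjusted p under 0.05 over all genes of its table (15723 in 3T3-L1, 14819 in DFAT), and 34 and 35 members could be tested. Derl3, an ERAD channel protein of secretory cells, was below the minimum in 3T3-L1, with 0 to 5.30 normalized counts in its 15 libraries.

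**Figure D1:**
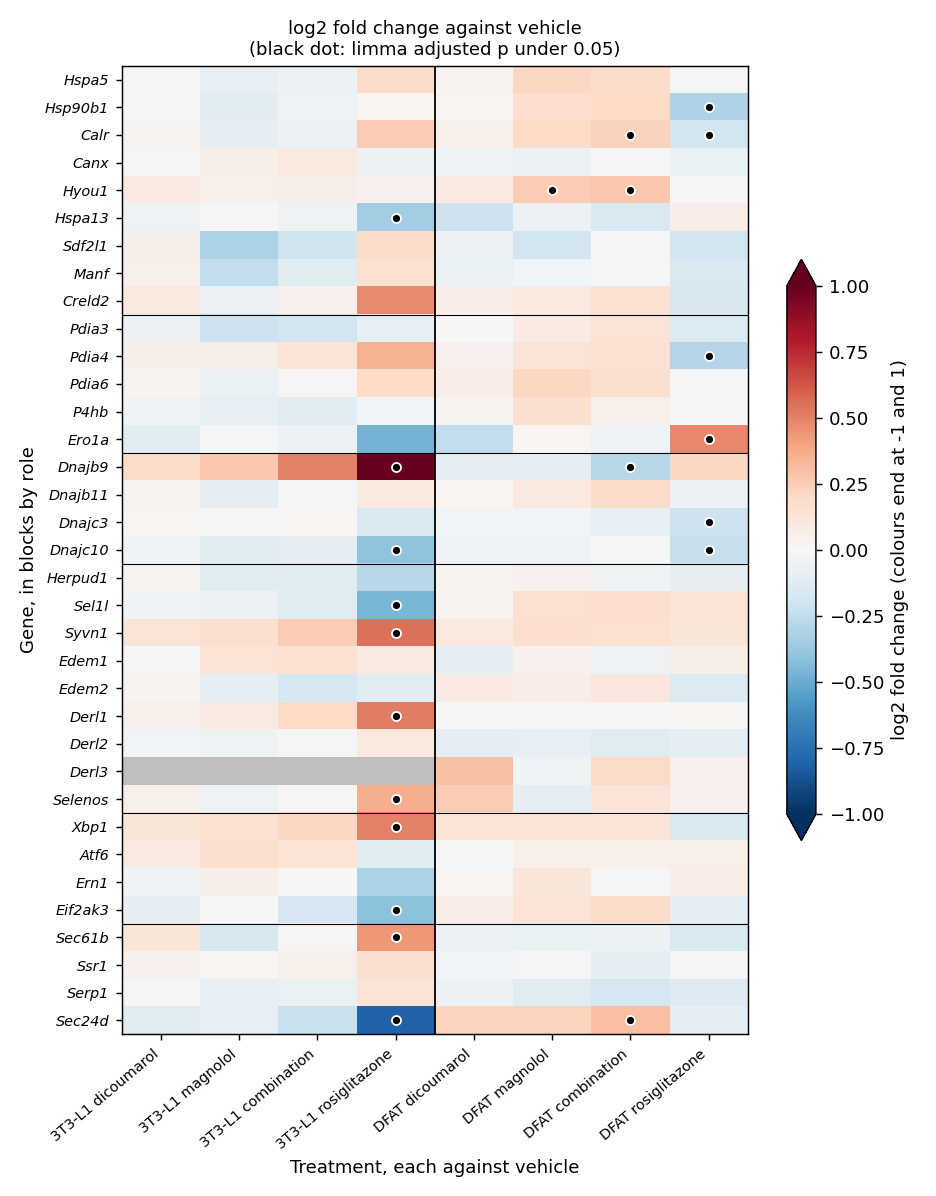
Log2 fold change against vehicle (colour, red higher and blue lower) of the 35 genes in rows, grouped by role, for the 4 treatments of each system in columns. Black dots mark limma adjusted p under 0.05 (11 dots for rosiglitazone in 3T3-L1 and 6 in DFAT), and grey marks Derl3, which was not tested in 3T3-L1.

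Promoter sequence is shown for Hspa5, Hsp90b1, Creld2, Syvn1, Dnajb9 and Sec24d. The ER stress response element (ERSE), which ATF6 and its partner NF-Y are known to bind, lies in some of them and not in others. Of these genes, Hspa5, Hsp90b1 and Creld2 were not called in 3T3-L1 under rosiglitazone in the reported fit. RefSeq windows of the GRCm38.p6 mouse build, of 300 bases around each annotated start, were matched by symbol for 30 of the 35 members (all but Atf6, Derl1, Hspa13, Hyou1 and Manf). The full ERSE, CCAAT followed by any 9 bases and then CCACG, on either strand, was in 39 of 32851 windows (0.119%) and in the windows of 9 of the 30 members: Hspa5, Hsp90b1, Calr, Canx, Creld2, Derl3, Dnajc3, Pdia6 and Syvn1. The unfolded protein response element (UPRE) TGACGTGG, which contains the reverse complement of the CCACG of the ERSE, was in 222 windows (0.676%) and in 1 member, Sec24d. The ends of the ERSE were common when taken alone. CCAAT was in 37.4% of all windows and in 23 of the 30 members (76.7%). CCACG was in 32.8% of all windows and in 25 members (83.3%). A member was counted where any of its windows held the letters. The stretches below run from 225 to 11 bases before the annotated start, 5′ to 3′ on the gene's strand. Capitals mark the fixed letters of a full ERSE (CCAAT and CCACG, or ATTGG and CGTGG where it lies on the opposite strand) or a UPRE. They lie at chr2:34771865-34772079 (plus strand) for Hspa5, chr10:86705455-86705669 (minus strand) for Hsp90b1, chr15:88819421-88819635 (plus strand) for Creld2, chr19:6046351-6046565 (plus strand) for Syvn1, chr12:44210079-44210293 (minus strand) for Dnajb9 and chr3:123267271-123267485 (plus strand) for Sec24d.
Hspa5: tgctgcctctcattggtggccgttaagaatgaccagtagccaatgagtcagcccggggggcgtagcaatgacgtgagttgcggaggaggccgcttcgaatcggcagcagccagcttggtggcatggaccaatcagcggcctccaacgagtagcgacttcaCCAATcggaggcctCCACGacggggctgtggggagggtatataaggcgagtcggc
Hsp90b1: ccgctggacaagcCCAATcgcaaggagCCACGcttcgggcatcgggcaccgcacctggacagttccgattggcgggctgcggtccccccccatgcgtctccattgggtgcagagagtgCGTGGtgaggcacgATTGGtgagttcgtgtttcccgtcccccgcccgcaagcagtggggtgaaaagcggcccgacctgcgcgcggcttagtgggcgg
Creld2: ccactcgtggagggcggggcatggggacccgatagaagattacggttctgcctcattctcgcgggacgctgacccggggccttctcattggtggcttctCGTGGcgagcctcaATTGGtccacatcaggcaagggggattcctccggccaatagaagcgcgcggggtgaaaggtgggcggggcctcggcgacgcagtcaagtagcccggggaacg
Syvn1: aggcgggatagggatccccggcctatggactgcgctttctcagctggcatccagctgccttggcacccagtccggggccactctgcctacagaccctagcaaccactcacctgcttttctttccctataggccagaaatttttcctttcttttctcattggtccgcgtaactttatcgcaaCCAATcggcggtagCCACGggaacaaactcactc
Dnajb9: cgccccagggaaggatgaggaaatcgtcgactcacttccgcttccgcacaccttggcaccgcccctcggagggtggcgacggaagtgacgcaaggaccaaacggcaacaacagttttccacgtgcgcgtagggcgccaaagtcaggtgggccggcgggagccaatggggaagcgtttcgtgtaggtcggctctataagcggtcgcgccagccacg
Sec24d: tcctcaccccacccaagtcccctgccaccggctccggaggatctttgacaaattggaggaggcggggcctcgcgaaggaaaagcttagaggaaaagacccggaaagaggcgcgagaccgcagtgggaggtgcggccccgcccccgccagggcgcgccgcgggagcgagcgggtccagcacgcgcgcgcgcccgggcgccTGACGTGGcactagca
Hspa5, Creld2 and Syvn1 show 1 full ERSE each and Hsp90b1 shows 2, 1 on each strand. Dnajb9 has neither a full ERSE nor a UPRE in its window, and Sec24d has a UPRE but no full ERSE. CCAAT and CCACG each occur in both windows, not spaced as a full ERSE. Of the members called in 3T3-L1 under rosiglitazone in the reported fit, Syvn1 alone had a full ERSE. Derl1 and Hspa13 had no window to search. With the replicate number as a block, Hspa5, Calr, Creld2 and Pdia6 were also called higher, and each has a full ERSE. The block also added Pdia4 (higher) and Ero1a, Ern1 and Herpud1 (lower), whose windows have none. Windows of the other called members are not shown. A match is a description of the letters and was not measured as a binding site.

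In 3T3-L1, rosiglitazone changed 11 of the 34 members tested, 6 higher and 5 lower by limma. That is 32.4% of the members beside 40.1% of all genes. Rises made up 17.6% of the members (20.3% of all genes) and falls 14.7% (19.9%). The groups did not overlap for 11 members, or 32.4%, beside 45.6% of all genes. The median log2 fold change of the members was 0.10 and that of all genes -0.001, and the median size of change was 0.22 in the members and 0.33 in all genes. In 3T3-L1, libraries with the same replicate number deviated together, and with the replicate number as a block limma called 19 members, 11 higher and 8 lower, or 55.9% of the members beside 49.8% of all genes. The replicate 2 library had the lowest median member level of each 3T3-L1 group, between -0.14 and 0.01 on the log2 scale relative to the vehicle mean. The calls that the block added are given with each gene. Without vehicle replicate 2 the fit called 6 members and without rosiglitazone replicate 1 it called 5.

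Among the J proteins, which hand substrates to BiP, Dnajb9 stood apart. Its 3 vehicle libraries held 917, 841 and 685 normalized counts and its rosiglitazone libraries 2226, 1965 and 2450. All 3 rosiglitazone libraries were above every other 3T3-L1 library, of which the highest was 1340 in a combination library. The mean rose from 814 ± 118 to 2214 ± 243 (SD, n = 3 each), a log2 fold change of 1.45 (SE 0.15, limma adjusted p = 2.6e-06). Dnajc10, a disulfide reductase that assists ERAD, moved the other way, from 4625, 5256 and 4571 under vehicle to 3005, 4054 and 3931. Without overlap of the groups, the log2 fold change was -0.40 (SE 0.12, limma adjusted p = 0.0127). Without vehicle replicate 2 or rosiglitazone replicate 1 its adjusted p was 0.0587 or 0.0739. Dnajb11, a BiP co-chaperone, and Dnajc3, which also restrains PERK, were at log2 fold changes of 0.10 and -0.15, neither called.

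The sensors and their transcription factor did not move together. Xbp1 was at 2634, 2023 and 2570 normalized counts under vehicle and 3613, 2861 and 3749 under rosiglitazone, with no overlap. Its log2 fold change was 0.50 (SE 0.16, limma adjusted p = 0.0203). Leaving out vehicle replicate 2 (limma adjusted p = 0.103), rosiglitazone replicate 1 (0.0692) or rosiglitazone replicate 3 (0.0767) ended the call. Eif2ak3, which encodes PERK, was at 1149, 1101 and 1104 under vehicle and 799, 818 and 918 under rosiglitazone. It fell by 0.41 on the log2 scale (SE 0.12, limma adjusted p = 0.0148), with no overlap, and its adjusted p was 0.0533 without rosiglitazone replicate 1. Ern1, which encodes IRE1, ran from 526, 721 and 513 under vehicle to 348, 612 and 464 under rosiglitazone. These groups overlapped, and the log2 fold change of -0.32 was not called (SE 0.17, limma adjusted p = 0.147) except with the replicate block (0.0316) or without rosiglitazone replicate 2 (0.0154, log2 fold change -0.53). Atf6 was at 1342, 1673 and 1261 under vehicle and 1043, 1510 and 1409 under rosiglitazone, overlapping, with a log2 fold change of -0.12 (SE 0.13, limma adjusted p = 0.511).

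The ERAD genes held 3 rises and 1 fall among 8 tested, beside 20.3% of all genes higher and 19.9% lower. Derl1, a channel component, rose from 3010, 2977 and 3163 to 4147, 4207 and 4677 normalized counts, a log2 fold change of 0.51 (SE 0.09, limma adjusted p = 0.000220). Syvn1, the ubiquitin ligase HRD1, was at 3235, 2070 and 2714 under vehicle and 4763, 3603 and 3290 under rosiglitazone. For both genes the 2 groups did not overlap. The log2 fold change of Syvn1 was 0.55 (SE 0.19, limma adjusted p = 0.0280), and it was not called without vehicle replicate 2 (0.149) or rosiglitazone replicate 1 (0.142). Selenos, a selenoprotein that links Derlins to the p97 ATPase, was higher by 0.36 (SE 0.09, limma adjusted p = 0.00429). Sel1l, the adaptor that holds HRD1 in its complex, went the opposite way to the ligase. It was at 5953, 6379 and 5192 under vehicle and 3614, 4853 and 4337 under rosiglitazone, without overlap. It fell by 0.46 on the log2 scale (SE 0.10, limma adjusted p = 0.00177). Herpud1, an ERAD scaffold that is a standard reporter of ER stress, was at 1327, 1957 and 1597 under vehicle and 1182, 1553 and 1253 under rosiglitazone. Its groups overlapped, and the log2 fold change of -0.28 had a limma adjusted p of 0.221 without the block and 0.00625 with it. Edem1, Edem2 and Derl2 were within -0.11 and 0.10 and not called.

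**Figure D2:**
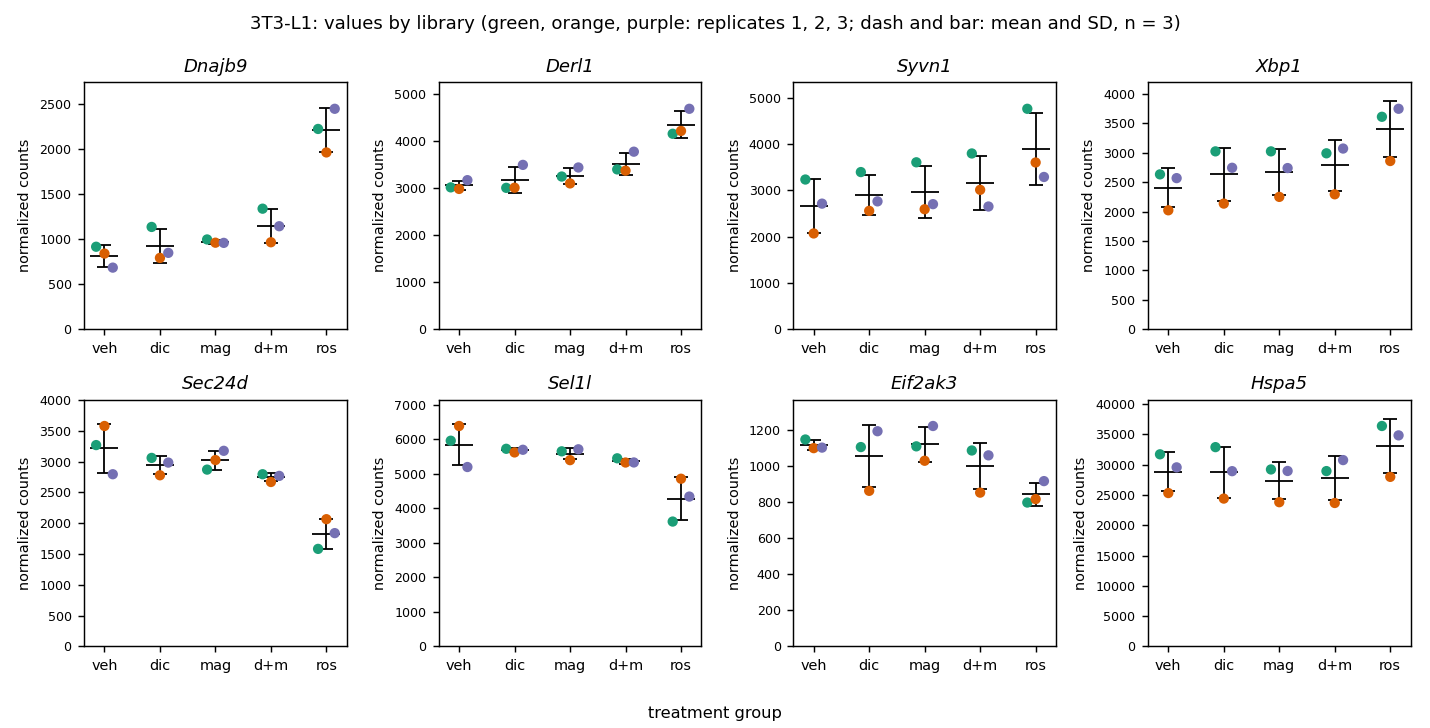
Normalized counts (y axis, from 0) of 8 genes in the 15 3T3-L1 libraries, by group on the x axis (veh, vehicle; dic, dicoumarol; mag, magnolol; d+m, combination; ros, rosiglitazone). Points are libraries coloured by replicate number, and dashes and bars are means and SD (n = 3); Dnajb9 is above all other groups under rosiglitazone, Sec24d is below them, and Hspa5 overlaps them.

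Of the 9 luminal chaperones 1 was called in 3T3-L1 under rosiglitazone, beside 40.1% of all genes. With the replicate block 3 were called higher (Hspa5, Calr and Creld2) and 1 lower, beside 49.8% of all genes. Hspa5, which encodes the central HSP70 chaperone BiP, was at 31709, 25317 and 29556 normalized counts under vehicle and 36382, 27987 and 34835 under rosiglitazone. Its groups overlapped, and the log2 fold change was 0.19 (SE 0.14, limma adjusted p = 0.307). In each replicate number the rosiglitazone library was the higher of the pair, and with the block the adjusted p was 0.0379. Hsp90b1, the ER member of the HSP90 family, was at 20004, 21102 and 23867 under vehicle and 20232, 20394 and 25218 under rosiglitazone. It had a log2 fold change of 0.02 (SE 0.16, limma adjusted p = 0.948). Sdf2l1, a BiP cofactor, was at 432, 289 and 448 under vehicle and 535, 321 and 483 under rosiglitazone, overlapping, with a log2 fold change of 0.19 (SE 0.21, limma adjusted p = 0.509). Of the 9 genes in this class only Hspa13, an HSP70-like ATPase, was called without the block, at -0.35 (SE 0.13, limma adjusted p = 0.0384), although its groups overlapped. Leaving out vehicle replicate 1 (0.0702), vehicle replicate 2 (0.181) or rosiglitazone replicate 1 (0.220) ended its call.

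The remaining chaperones and the disulfide enzymes were called only under some conditions of the fit. Creld2, a secreted ER stress marker, had a log2 fold change of 0.47 with a limma adjusted p of 0.0889, against 0.000335 with the block and 0.0223 without rosiglitazone replicate 2. The lectin chaperone Calr was at 0.25 (0.118, with the block 0.0228, without vehicle replicate 3 0.0299). After quantile normalization Calr was at 0.44 with a limma adjusted p of 0.00537. The disulfide isomerase Pdia4 was at 0.35 (0.0682, with the block 0.000297, without vehicle replicate 3 0.0311, without rosiglitazone replicate 2 0.0387). Pdia6, another isomerase, was at 0.20 (0.163, with the block 0.0135). Ero1a, the oxidase that recharges the isomerases, was at -0.47 (0.0792, with the block 0.00504, without vehicle replicate 3 0.00928 and -0.71). Canx, Pdia3 and P4hb lay between -0.08 and -0.03, and Hyou1 and Manf at 0.04 and 0.15, none called.

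At the exit and entry sites of the ER, Sec24d and Sec61b moved in opposite directions. Sec24d fell from 3269, 3579 and 2796 normalized counts under vehicle to 1584, 2066 and 1840, below every other 3T3-L1 library. The log2 fold change was -0.81 (SE 0.10, limma adjusted p = 1.9e-05). Sec61b, a subunit of the protein-conducting channel, was at 815, 566 and 889 under vehicle and 1164, 896 and 967 under rosiglitazone, where the lowest treated library only just exceeded the highest vehicle library. Its log2 fold change was 0.43 (SE 0.14, limma adjusted p = 0.0234). Without vehicle replicate 2 that was 0.24 (limma adjusted p = 0.135), and without rosiglitazone replicate 1 the adjusted p was 0.115. Ssr1 and Serp1, which assist translocation, were at 0.16 and 0.13, not called. Of the 11 called members, Dnajb9, Derl1, Selenos, Sel1l and Sec24d kept the call in every alternative run.

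The other 3 treatments called no member in 3T3-L1. With dicoumarol limma called 0% of all genes; no member had an unadjusted p under 0.05, and 0 of 34 members had groups that did not overlap (5.83% of all genes). Magnolol gave calls in 1.23% of all genes and 0 members, 0 of which reached an unadjusted p under 0.05; 1 member did not overlap (15.4% of all genes). The combination called 5.22% of all genes and 0 members; 3 reached an unadjusted p under 0.05 and 4 did not overlap (21.0% of all genes). limma-voom also called 0 members in all 3 comparisons. Dnajb9 was the highest member by fold change in each, at 0.18, 0.27 and 0.50, comparisons that share their vehicle libraries. In its combination libraries it was at 1340, 967 and 1145 normalized counts, above all vehicle libraries, with a limma adjusted p of 0.0642. That p was 0.0341 without combination replicate 2 and 0.00729 with the replicate block, which also called Xbp1 at 0.21 (0.0363) and Derl1 at 0.20 (0.0301). With the block 8.82% of the members and 13.5% of all genes were called for the combination.

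Rosiglitazone against the combination in 3T3-L1 called 6 of 34 members (17.6%, beside 18.3% of all genes), 4 higher (11.8% beside 9.53%) and 2 lower (5.88% beside 8.78%). The groups did not overlap for 10 members (29.4%, beside 35.3% of all genes). Dnajb9 (0.95), Derl1 (0.31), Selenos (0.34) and Sec61b (0.42) were higher under rosiglitazone, and Sec24d (-0.59) and Sel1l (-0.34) lower. The fit with the block called 19, 13 higher and 6 lower (55.9% of the members beside 33.3% of all genes), among them Hspa5 at 0.25 (limma adjusted p = 0.0159), Creld2 at 0.43 (0.00167) and Xbp1 at 0.29 (0.00224). Leaving out combination replicate 1 or 2 or rosiglitazone replicate 3 gave 2 calls, rosiglitazone replicate 1 gave 3 and rosiglitazone replicate 2 gave 12. Sel1l and Sec61b were each lost in 5 of the 6 such fits, Selenos in 4 and Derl1 in 3, and of the called members only Dnajb9 and Sec24d were kept in all. Combination against dicoumarol and against magnolol called 0 members each (0.0254% and 0% of all genes), where 1 and 0 members reached an unadjusted p under 0.05 and limma-voom called 0.

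In DFAT, rosiglitazone changed 6 of 35 members, 1 higher and 5 lower, or 17.1% of the members beside 10.8% of all genes. The 1 rise made up 2.86% of the members and rises 5.80% of all genes. Falls were called in 14.3% of the members and 5.02% of all genes. The groups did not overlap for 11 members, 31.4%, beside 21.4% of all genes; 10 of these were lower (10.9% of all genes). After quantile normalization 2 members were higher and 5 lower, the added one being DNAJB9. The median log2 fold change was -0.07 in the members and -0.006 in all genes.

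ERO1A, the oxidase, was the only called rise. Its DFAT vehicle libraries held 11372, 9861 and 11320 normalized counts and its rosiglitazone libraries 14136, 15421 and 15928, above every other DFAT library. The log2 fold change was 0.48 (SE 0.06, limma adjusted p = 4.8e-05). The isomerases did not follow it: PDIA4 fell from 17000, 16877 and 16133 to 13747, 12764 and 14305, below every other library. Its log2 fold change was -0.29 (SE 0.06, limma adjusted p = 0.00399). PDIA3, PDIA6 and P4HB were at -0.14, -0.01 and -0.01, not called. ERO1A and PDIA4 kept their calls in every alternative run. Without vehicle replicate 3, or when only the 6 compared libraries were fitted, 3 members were called.

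HSP90B1 and CALR were lower in DFAT under rosiglitazone. HSP90B1 fell from 19134, 19164 and 20372 to 15395, 14636 and 17264 normalized counts, a log2 fold change of -0.31 (SE 0.08, limma adjusted p = 0.0156). No treated library reached a vehicle library, and the adjusted p was 0.0577 without vehicle replicate 3 and 0.0529 without rosiglitazone replicate 2. CALR, which encodes calreticulin, fell from 33170, 31951 and 32365 to 28121, 27631 and 29441, again without overlap. Its log2 fold change was -0.19 (SE 0.06, limma adjusted p = 0.0307), with 0.0554 to 0.111 when a vehicle library or rosiglitazone replicate 1 or 2 was left out. CANX, the other lectin chaperone, was at -0.07 and not called (limma adjusted p = 0.627), with overlapping groups. HSPA5 was at 23029, 23010 and 24389 under vehicle and 23258, 20960 and 25603 under rosiglitazone, overlapping, with a log2 fold change of -0.02 (SE 0.08, limma adjusted p = 0.941). SDF2L1 was low, at 67.6, 90.6 and 53.0 under vehicle and 80.7, 60.8 and 43.8 under rosiglitazone, and was not called (-0.19, SE 0.24, limma adjusted p = 0.737).

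The J proteins DNAJC10 and DNAJC3 were also lower. DNAJC10 went from 11741, 11561 and 12974 normalized counts to 9702, 10978 and 10315 (log2 fold change -0.23, SE 0.06, limma adjusted p = 0.0212). DNAJC3 went from 9847, 9608 and 10662 to 8140, 9352 and 8535 (-0.21, SE 0.06, limma adjusted p = 0.0302). Neither gene's groups overlapped. Both calls rested on single libraries: without vehicle replicate 3 the adjusted p was 0.0929 for DNAJC10 and 0.118 for DNAJC3, without rosiglitazone replicate 1 it was 0.0930 and 0.124, and without rosiglitazone replicate 3 it was 0.0623 and 0.0973. For DNAJC3 it was also 0.0604 without vehicle replicate 1. DNAJB9 was at 4972, 5056 and 5910 under vehicle and 5732, 6407 and 6325 under rosiglitazone, overlapping, with a log2 fold change of 0.21 (SE 0.07, limma adjusted p = 0.0664). Its adjusted p was 0.00959 without vehicle replicate 3, 0.0359 without rosiglitazone replicate 1 and 0.0379 after quantile normalization.

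None of the 9 ERAD genes, the 4 sensor and transcription factor genes or the 4 translocation and export genes was called in DFAT under rosiglitazone. Of all genes 10.8% were called there. HERPUD1 was at 6546, 6290 and 6405 normalized counts under vehicle and 6085, 5918 and 6009 under rosiglitazone. These groups did not overlap, but the log2 fold change of -0.10 was not called (SE 0.05, limma adjusted p = 0.237). XBP1 was at 6346, 6548 and 7187 under vehicle and 5509, 6742 and 5839 under rosiglitazone, overlapping (-0.15, SE 0.07, limma adjusted p = 0.217). Without rosiglitazone replicate 2 XBP1 was at -0.24 with an adjusted p of 0.0224. The sensors gave 2377, 2380 and 2174 against 2677, 2077 and 2570 for ERN1, and 21094, 19176 and 23506 against 19916, 24437 and 21770 for ATF6. EIF2AK3 gave 3504, 3455 and 3803 against 3327, 3289 and 3404. Only EIF2AK3 had groups that did not overlap, and the log2 fold changes of the 3 sensors were 0.07, 0.05 and -0.10, with limma adjusted p of 0.685, 0.793 and 0.475.

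**Figure D3:**
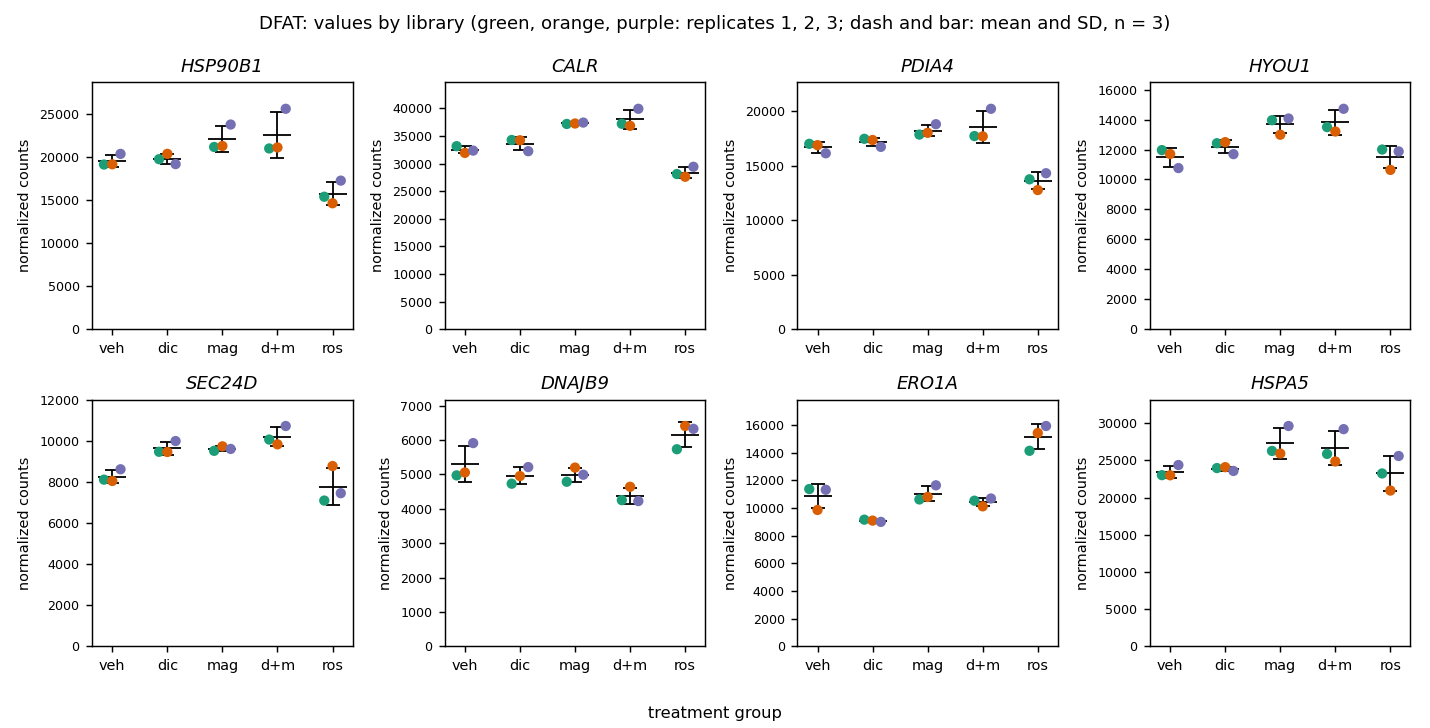
Normalized counts (y axis, from 0) of 8 genes in the 15 DFAT libraries, by group on the x axis (veh, vehicle; dic, dicoumarol; mag, magnolol; d+m, combination; ros, rosiglitazone). Points are libraries coloured by replicate number, and dashes and bars are means and SD (n = 3); HSP90B1, CALR and PDIA4 are lowest under rosiglitazone and ERO1A is highest there.

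With the combination, DFAT members changed in 4 of 35 cases, 3 higher and 1 lower (11.4% of the members beside 10.2% of all genes). Rises were 8.57% of the members (6.11% of all genes) and falls 2.86% (4.06%). In 11 members (31.4%, beside 28.9% of all genes) the groups did not overlap. With the replicate number as a block limma called 11 members, 31.4% beside 17.8% of all genes. SEC24D was at 8114, 8051 and 8619 normalized counts under vehicle and 10065, 9832 and 10724 with the combination (log2 fold change 0.30, SE 0.07, limma adjusted p = 0.00709). HYOU1, a large HSP70-family chaperone that acts as a nucleotide exchange factor for BiP, was at 11961, 11703 and 10761 and at 13497, 13201 and 14719 (0.27, SE 0.07, limma adjusted p = 0.0130). CALR reached 37231, 36862 and 39943 with the combination, from the vehicle values above (0.23, SE 0.06, limma adjusted p = 0.0139). For these 3 genes every combination library was above every vehicle library. DNAJB9 was lower, at 4252, 4640 and 4225 (-0.28, SE 0.07, limma adjusted p = 0.0183), again without overlap with vehicle.

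The call for SEC24D held when any library was left out, and it was the 1 call that remained without combination replicate 3. Leaving out combination replicate 3 gave adjusted p of 0.0646 for CALR, 0.0679 for HYOU1 and 0.0697 for DNAJB9. Leaving out vehicle replicate 3 gave 0.0658 for HYOU1 and 0.0932 for DNAJB9, which was also lost without combination replicate 1 (0.0715). After quantile normalization 3 members were higher and 2 lower, SERP1 being added at -0.18 (0.0438). HSPA5 was at 25883, 24864 and 29213 with the combination, all above its vehicle libraries, with a log2 fold change of 0.18 that was not called (SE 0.08, limma adjusted p = 0.162). HSP90B1, at 21001, 21118 and 25609, likewise did not overlap vehicle and was not called (0.20, SE 0.08, limma adjusted p = 0.128).

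Magnolol alone called HYOU1 only, 1 of 35 members (2.86%, beside 4.22% of all genes). HYOU1 was at 13956, 12988 and 14071 normalized counts, above all vehicle libraries, with a log2 fold change of 0.25 (SE 0.07, limma adjusted p = 0.0342). Of the 6 fits without a library, that without magnolol replicate 2 alone kept the call. The adjusted p was 0.0526, 0.0564 or 0.144 without vehicle replicate 1, 2 or 3, and 0.134 or 0.130 without magnolol replicate 1 or 3. The call also ended with no variance trend (0.0704), after quantile normalization (0.0593), with no filter on low values (0.0662) and with the compared groups only (0.0638). CALR, at 37196, 37278 and 37448, and PDIA6 at 8469, 8269 and 8812 were also above every vehicle library, with limma adjusted p of 0.0529 and 0.0539. In all, 9 members did not overlap (25.7%, beside 21.9% of all genes).

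Dicoumarol alone called 0 of 35 members (1.94% of all genes), and limma-voom also called 0. Those that reached an unadjusted p under 0.05 numbered 4: ERO1A (-0.25, limma adjusted p = 0.0539), SELENOS (0.25, 0.0934), SEC24D (0.22, 0.134) and HSPA13 (-0.21, 0.235). ERO1A was at 9161, 9093 and 9001 normalized counts, below every vehicle library and opposite to its position under rosiglitazone. Its adjusted p was 0.0162 without vehicle replicate 2, and that of SELENOS was 0.0270 without vehicle replicate 3. The groups did not overlap for 8 members (22.9%, beside 19.3% of all genes). After quantile normalization 2 members were called higher and 1 lower.

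Rosiglitazone against the combination was the comparison in DFAT with the most members called, 15 of 35 (42.9%, beside 17.0% of all genes). Of these 12 were lower under rosiglitazone, 34.3% of the members beside 8.79% of all genes, and 3 were higher (8.57% beside 8.24%). For 18 members the groups did not overlap (51.4%, beside 29.7% of all genes), 14 of them lower (14.6% of all genes). The median log2 fold change was -0.13 in the members and 0.003 in all genes. Of the 9 luminal chaperones 4 were lower, HSP90B1 (-0.52), CALR (-0.42), CRELD2 (-0.31) and HYOU1 (-0.26), and HSPA13 was higher (0.22, with a limma adjusted p just under 0.05). HSPA5 was at -0.20 with a limma adjusted p of 0.0950, and of 0.0170 with the replicate block, which also called PDIA6 (-0.17, 0.0204). The disulfide group held PDIA4 (-0.44) and PDIA3 (-0.27) lower and ERO1A (0.54) higher, and the J proteins DNAJB11 (-0.25) and DNAJC10 (-0.23) lower and DNAJB9 (0.49) higher. XBP1 (-0.29), EIF2AK3 (-0.29), the mannosidase-like ERAD factor EDEM2 (-0.26) and SEC24D (-0.40) were lower.

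The strength of these calls differed. HSP90B1, CALR, PDIA4, SEC24D, ERO1A, DNAJB9, XBP1, HYOU1 and EDEM2 were called whichever library was left out. CRELD2 was lost without combination replicate 1 (0.127) or 2 (0.112) or rosiglitazone replicate 2 (0.128) or 3 (0.105). HSPA13 was lost without combination replicate 1 (0.172) or 2 (0.123) or any rosiglitazone library (0.0600 to 0.112). PDIA3 (0.0959), DNAJB11 (0.0899) and EIF2AK3 (0.0502) were lost without combination replicate 3. Without rosiglitazone replicate 1 the losses were PDIA3 (0.0523), DNAJB11 (0.0662) and DNAJC10 (0.0610); PDIA3 was also lost without rosiglitazone replicate 2 (0.0513) and DNAJC10 without combination replicate 2 (0.0526). Fitting only the 6 compared libraries left 6 calls, 2 higher and 4 lower. The stromal marker sum, given above, was also lower under rosiglitazone than with the combination, with 4 of 6 stromal markers called lower and 0 higher. The muscle sums were lower too, and the part of either in these falls was not tested. The combination called 0 members against dicoumarol (2.35% of all genes) and 0 against magnolol (0.621%), where 6 and 2 reached an unadjusted p under 0.05 and limma-voom called 0.

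The rosiglitazone responses differed between the systems for 12 of 34 members, beside 38.8% of the 9368 genes matched by symbol. The difference of the within-system log2 fold changes (3T3-L1 minus DFAT) was tested with the combined limma standard errors. Ero1a was at -0.47 in 3T3-L1 (not called there) and rose by 0.48 in DFAT, a difference of -0.95 (SE 0.21, adjusted p from limma = 0.00166). Dnajb9 rose in 3T3-L1 by 1.45 and was at 0.21 in DFAT, a difference of 1.23 (SE 0.16, adjusted p from limma = 3.4e-06). Sec24d (-0.81 and -0.09) and Sel1l (-0.46 and 0.14) were further down in 3T3-L1. Xbp1 (0.50 and -0.15), Pdia4 (0.35 and -0.29), Sec61b (0.43 and -0.15) and Derl1 (0.51 and 0.02) were further up. Calr, Creld2, Selenos and Hspa13 also differed, but their calls were lost when single libraries were left out, 3T3-L1 vehicle replicate 2 for all 4 (adjusted p 0.0593, 0.191, 0.0946 and 0.117). With the combination 2 members differed, Dnajb9 and Sec24d (11.7% of all genes), and with dicoumarol and magnolol 0 (0.149% and 3.23%). The species, the inducer mix and the cell type differ together between the systems and cannot be told apart.

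**Figure D4:**
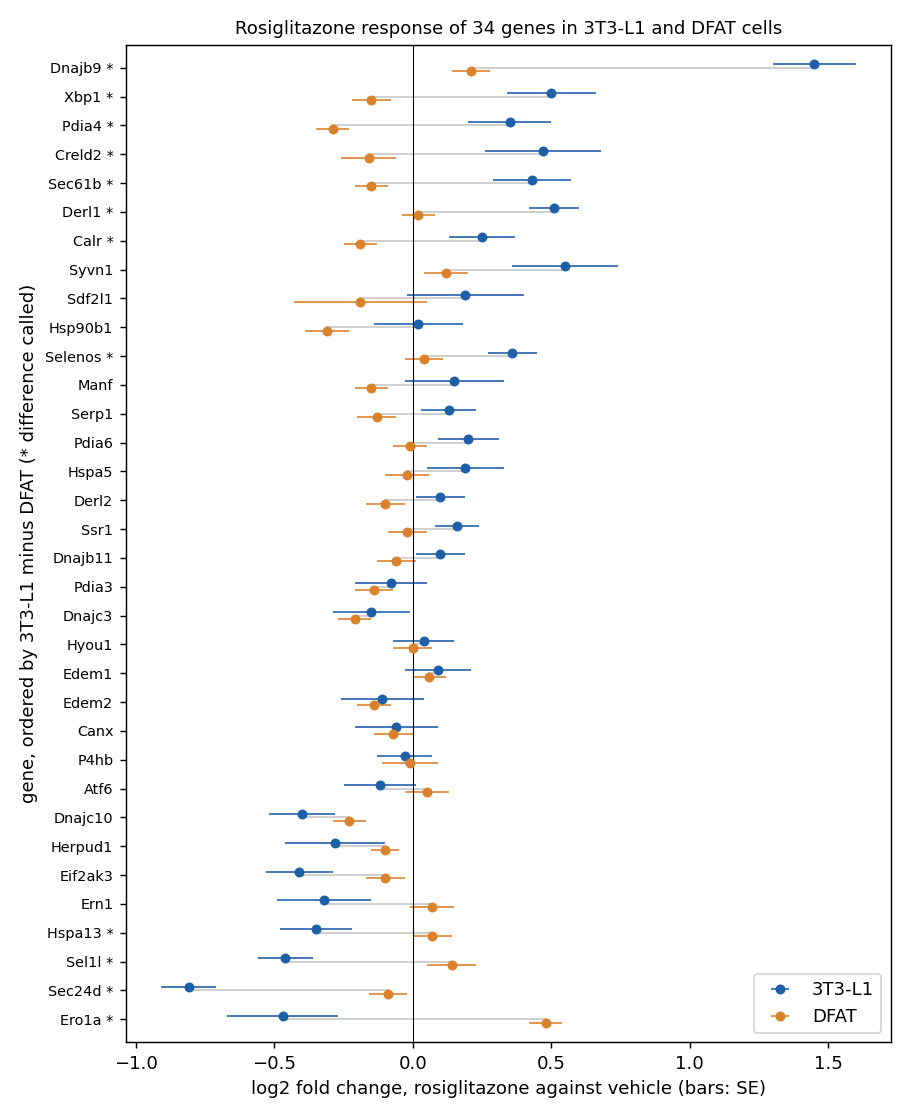
Log2 fold change under rosiglitazone against vehicle (x axis) with SE bars for the 34 genes tested in both systems, ordered by 3T3-L1 minus DFAT; blue, 3T3-L1; orange, DFAT. Asterisks mark the 12 genes whose difference was called; Dnajb9 (1.45 and 0.21) is at the top and Ero1a (-0.47 and 0.48) at the bottom.

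Genes of neighbouring ER pathways, in lists that exclude the members, were also called in both directions in 3T3-L1 under rosiglitazone, where 20.3% of all genes were higher and 19.9% lower. Of 22 further ERAD genes 6 were higher (27.3%) and 5 lower (22.7%) by limma: the p97 ATPase Vcp was at 0.53 and the ligase Rnf5 at 0.69, while the lectin Os9 was at -0.41. Of 26 COPII and retrieval genes 6 were higher (23.1%) and 5 lower (19.2%), with the vesicle coat gene Sec13 at 0.34, and the collagen export factor Mia3 at -0.51 and the KDEL receptor Kdelr3 at -0.62 among the falls. The folding list had 4 higher (13.3%) and 3 lower (10.0%) of 30, and the translocon list 3 (9.68%) and 2 (6.45%) of 31. These shares were below those of all genes. The PERK and signalling list had 5 higher (21.7%) and 4 lower (17.4%) of 23. In the PERK and signalling list the ER stress transducers Creb3l1 (-0.58) and Creb3l2 (-0.74) were lower and Eif2s1, the translation factor that PERK phosphorylates, was at 0.51. The medians of the 5 lists lay between -0.07 and 0.04, beside -0.001 for all genes.

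In DFAT the folding list had 6 of 30 genes lower and 0 higher under rosiglitazone by limma, with a median of -0.10 beside -0.006 for all genes. Falls made up 20.0% of the list and 5.02% of all genes, of which 5.80% were higher. CNPY2 (-0.34), FKBP9 (-0.34) and FKBP7 (-0.40) were among them; FKBP9 and FKBP7 are peptidyl-prolyl isomerases. With the combination the same list had 6 higher (20.0%) and 1 lower (3.33%), beside 6.11% and 4.06% of all genes. These included the collagen chaperone SERPINH1 at 0.45 and CRELD1 at 0.42, with PPIB lower at -0.25. SERPINH1 was also called higher with magnolol alone (0.43), while CRELD1 and PPIB were called with neither compound alone. The PERK list had 5 higher (22.7%) and 2 lower (9.09%) of 22 under rosiglitazone: STC2 (1.00), CHAC1 (0.67), TRIB3 (0.58), DDIT3 (0.56), which encodes CHOP, and ATF4 (0.22) rose, and NUPR1 (-0.56) and WFS1 (-0.40) fell. With the combination ATF4 (-0.27), PPP1R15A (-0.28) and NUPR1 (-1.07) were lower and the collagen-linked transducer CREB3L1 was higher at 0.38. NUPR1 was also called lower with dicoumarol (-0.61) and magnolol (-0.65) alone, and CREB3L1 higher (0.38 and 0.32). ATF4 and PPP1R15A were called with neither compound alone. In 3T3-L1 the combination lowered Creb3l1 (-0.39). All treatments of a system share its vehicle libraries, so these values are set side by side only.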

How the data were processed

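Messenger RNA libraries with dUTP strand marking were sequenced, per the labels' protocols, 15 for each system (5 groups, 3 libraries per group). The authors deposited 1 table of signal per species, holding counts per gene divided by DESeq2 size factors, per the file headers and labels. The submitters' processing notes name bcl2fastq 2.19.1.403, STAR and DESeq2, and list the build GRCm38 for all samples, pig included. Starts in the deposited mouse table matched GENCODE M21, an annotation of GRCm38, for 646 of 24070 identifiers (2.68%), so deposited coordinates were not used. Whole reads could be recovered for 81.6 to 82.7% (3T3-L1) and 89.8 to 91% (DFAT) of low values (up to 20 reads, within 0.02 of a whole number), which was too few for a count test.

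All fits were made here with limma 3.58.1 (R 4.3.3) on log2(value + 1), with a variance trend, all 5 groups of a table in 1 model, genes with a mean of at least 10, and Benjamini-Hochberg adjustment over all tested genes; a call needs an adjusted p under 0.05. Fold changes are on that log2(value + 1) scale, and the median standard error over all genes was 0.146 in 3T3-L1 and 0.0992 in DFAT. Systems were compared by the difference of log2 fold changes over the root of the summed squared limma standard errors, two-sided, with Satterthwaite degrees of freedom, over 9368 genes. On simulated data for rosiglitazone against vehicle, with 200 changed genes, limma recovered 47.6%, 88.4% and 98.5% of 1.5-, 2- and 4-fold changes in 3T3-L1 (15625 genes, 7 of 165 calls false). In DFAT it recovered 69.9%, 91.5% and 98.5% (14750 genes, 8 of 180 false). The simulated counts had the same spread setting for all genes and no effect of replicate number. They also had fewer changed genes than limma called under rosiglitazone, so these rates need not hold for the real libraries.

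Replicate libraries of a group differed by more than sampling noise, at 8.85 or more in chi-square per gene. Same-numbered libraries deviated together in all 3T3-L1 comparisons (correlations 0.106 to 0.462 over 30 pairs). In DFAT they did so between combination and magnolol (0.118 to 0.345) and between rosiglitazone and combination (0.105 to 0.288). Against vehicle the DFAT correlations were weaker with dicoumarol (0.075 to 0.193), magnolol (0.005 to 0.209) and the combination (0.033 to 0.166). They had both signs for rosiglitazone against vehicle (-0.306 to 0.076) and the combination against dicoumarol (-0.022 to 0.093). Blocked values are given beside results they change in 3T3-L1 and for rosiglitazone against the combination in DFAT. For DFAT dicoumarol, magnolol and the combination, and the combination against dicoumarol, blocked counts are in the closing section. Per-library values are given for the called members of each comparison with vehicle (up to 4 largest rises and 4 largest falls) and always for Ern1, Atf6, Eif2ak3, Xbp1, Hspa5, Hsp90b1, Dnajb9, Herpud1 and Sdf2l1; values given for other members were chosen after they were seen. The members and gene lists were chosen with earlier results of these data known. Promoter windows are those of RefSeq for GRCm38.p6, in which motifs were searched by their letters. Alternatives were pseudocounts of 0.5 and 10, no filter or a mean of at least 50, quantile normalization, no variance trend, limma-voom, the compared groups only, the replicate block, and leaving out each library.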

Additional observations from a re-analysis of the deposited data

Results flagged for a closer look

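Each gene below had a response that differed between 3T3-L1 and DFAT by the test of the difference (3T3-L1 minus DFAT, log2 scale, adjusted p from limma standard errors). They were 12 of 34 members for rosiglitazone, beside 38.8% of all matched genes, and 2 of 34 with the combination, beside 11.7%. Under rosiglitazone the difference was 1.23 for Dnajb9 (adjusted p = 3.4e-06), 0.65 for Xbp1 (0.00514), 0.64 for Pdia4 (0.00282), 0.63 for Creld2 (0.0364), 0.59 for Sec61b (0.00476) and 0.49 for Derl1 (0.000538). It was 0.44 for Calr (0.0116) and 0.31 for Selenos (0.0269). Below zero it was -0.95 for Ero1a (0.00166), -0.72 for Sec24d (4.4e-05), -0.59 for Sel1l (0.000802) and -0.42 for Hspa13 (0.0248). With the combination it was 0.77 for Dnajb9 (0.00272) and -0.53 for Sec24d (0.00516).

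Against vehicle, Dnajb9 was at 1.45 under rosiglitazone and 0.50 with the combination in 3T3-L1, and in DFAT at 0.21 under rosiglitazone and -0.28 with the combination. Sec24d was at -0.22 with the combination in 3T3-L1 and at 0.30 in DFAT. Creld2 is the least stable of these: besides the libraries named above, it was lost without 3T3-L1 rosiglitazone replicate 1 (0.116) or 3 (0.121), and without DFAT vehicle replicate 2 (0.0583) or DFAT rosiglitazone replicate 2 (0.0627) or 3 (0.0506). Selenos was lost without 3T3-L1 rosiglitazone replicate 1 (0.0724) or 3 (0.0708), DFAT vehicle replicate 3 (0.0864) or DFAT rosiglitazone replicate 1 (0.0700). Hspa13 was lost without 3T3-L1 rosiglitazone replicate 1 (0.140) or DFAT vehicle replicate 2 (0.0510).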

How the results depend on the processing

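No value that was called, in the reported fit or in an alternative, changed sign. Of the 1275 recomputed values of named members 42 did, in 26 comparisons of a gene, none of them called in either fit. One was DFAT HSPA5 under rosiglitazone, at 0.01 after quantile normalization and -0.02 as reported. Of the recomputed counts of called members (other than single-library exclusions), 129 were within 1.5 times the main count and 21 were not. With the replicate block as a paired analysis the counts became 3 (3T3-L1 combination), 19 (3T3-L1 rosiglitazone) and 19 (3T3-L1 rosiglitazone against combination), with shares given above. In DFAT they became 3 for dicoumarol (8.57% of the members beside 4.52% of all genes) and 5 for magnolol (14.3% beside 9.18%). The DFAT combination had 11 (31.4% beside 17.8%), and against dicoumarol it had 2 (5.71% beside 6.03%). In those DFAT comparisons the labels give the libraries only a shared number, and same-numbered libraries correlated at -0.022 to 0.209. The same block gave 5, 6 and 19 members that differed between systems for magnolol, the combination and rosiglitazone. With the compared groups only, the counts were 2 (3T3-L1 rosiglitazone against combination) and, in DFAT, 2 (dicoumarol), 0 (magnolol), 3 (rosiglitazone), 1 (combination against dicoumarol) and 6 (rosiglitazone against combination). DFAT dicoumarol had 1 call at a mean of at least 50 and 3 after quantile normalization. DFAT magnolol had 0 with no filter, 3 at a mean of at least 50 and 2 by limma-voom. Leaving out each library in turn gave 0 to 1 (3T3-L1 combination), 5 to 14 (3T3-L1 rosiglitazone), 2 to 12 (3T3-L1 rosiglitazone against combination), 0 to 1 (DFAT dicoumarol), 0 to 1 (DFAT magnolol), 1 to 4 (DFAT combination), 3 to 7 (DFAT rosiglitazone), 11 to 15 (DFAT rosiglitazone against combination) and 8 to 14 (rosiglitazone, between systems). The cause of these shifts was not tested. With 3 libraries per group, changes near 1.5-fold were recovered in part only in the simulated data.

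The other sign changes came from leaving out 1 library, with these ranges of log2 fold changes over the 6 exclusions. In 3T3-L1 with dicoumarol they were -0.11 to 0.10 (Hspa5), -0.15 to 0.19 (Herpud1), -0.14 to 0.12 (Ern1), -0.14 to 0.21 (Sdf2l1), -0.13 to 0.05 (Hsp90b1) and -0.19 to 0.04 (Eif2ak3). With magnolol they were -0.03 to 0.22 (Ern1), -0.26 to 0.02 (Herpud1) and -0.17 to 0.02 (Hspa5). With the combination they were -0.15 to 0.05 (Hspa5), -0.27 to 0.02 (Herpud1) and -0.21 to 0.04 (Hsp90b1). Under rosiglitazone they were -0.09 to 0.09 (Hsp90b1), -0.01 to 0.41 (Sdf2l1) and -0.22 to 0.04 (Atf6). In DFAT with dicoumarol they were -0.24 to 0.14 (SDF2L1), -0.09 to 0.05 (ATF6), -0.02 to 0.04 (ERN1) and -0.01 to 0.05 (HSP90B1). With magnolol they were -0.02 to 0.12 (ATF6) and -0.37 to 0.02 (SDF2L1). With the combination they were -0.02 to 0.12 (ATF6) and -0.07 to 0.01 (ERN1). Under rosiglitazone they were -0.09 to 0.06 (HSPA5), -0.02 to 0.13 (ATF6) and -0.41 to 0.03 (SDF2L1).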
